A study of Mus musculus with 6 samples.

Results

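Gm7030, a class Ib gene of the mouse major histocompatibility complex, was described together with the genes that build and load class I molecules. The 8 members were the table rows whose symbol was Gm7030, H2-D1, H2-K1, H2-T23, B2m, Tap1, Tap2 or Tapbp, of 10539 genes in all. All 8 had a mean of at least 1 FPKM (fragments normalised to gene length and to the mapped fragments of the library) over the 6 libraries, the level from which genes were tested (9617 genes). Gm7030 was chosen for its difference between the groups and reached that mean through the group in which it was high, so its values are given as a description with no test. The other 7 members were chosen by role, with earlier results of these data known.

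The cells were alveolar macrophages, the resident phagocytes of lung airspaces, taken from C57BL/6 mice, and all libraries carry overexpression of the transcription factor C/EBPβ. Group CEBPb-A (3 libraries, CEBPβ-A in the labels) received in addition an A20 adenovirus (A20-Ad). A20 is the ubiquitin-editing enzyme of the gene Tnfaip3 that restrains NF-κB signalling. Group CEBPb (3 libraries, CEBPβ in the labels) has C/EBPβ overexpression with no A20 virus named. Which virus the CEBPb cells received, how C/EBPβ was overexpressed, and whether replicates came from separate animals or cultures are not stated. Every p-value therefore reflects the variation among 6 libraries alone, part or all of which may be technical.

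A class I molecule is a heavy chain paired with the light chain β2-microglobulin and a short peptide. The TAP transporter, a dimer of the Tap1 and Tap2 products, carries peptides from the cytosol into the endoplasmic reticulum, and tapasin (Tapbp) bridges TAP to empty class I molecules while peptides are exchanged. The classical heavy chains H2-K1 and H2-D1 present peptides to CD8+ T cells, and the class Ib protein of H2-T23 (Qa-1) presents leader peptides to CD94/NKG2A receptors of natural killer cells. The heavy chain genes arose by duplication on chromosome 17 and stay alike in sequence. The coactivator NLRC5, interferons and NF-κB drive class I transcription.

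The 15 alveolar macrophage markers all had rows, and their FPKM summed to between 32844 and 43746 in CEBPb-A libraries and between 30281 and 41195 in CEBPb libraries, mostly through Lyz2, Chil3 and Ctsd. By limma 0 of the 15 passed, beside 0.052% of all tested genes. A positive log2 difference was found for 12, beside 4480 of all 9617 tested genes. The groups did not overlap for 4 higher in CEBPb-A (Pparg, Car4, Ear1 and Ear2), beside 7.89% of all tested genes. They did not overlap for 1 lower (Itgax), beside 8.86%. Car4 averaged 66.5 ± 11.2 FPKM in CEBPb-A and 45.6 ± 2.08 FPKM in CEBPb (SD, n = 3 each, adjusted p = 0.588, limma). None of the 6 B cell and 14 T and NK cell markers had a row among the genes analysed here. The summed FPKM of 6 lung epithelial markers was 63.4, 55.6 and 109 in CEBPb-A libraries 1 to 3, against 64.2, 55.7 and 53.5 in CEBPb libraries 1 to 3. Of 8 neutrophil markers, 3 had rows. Their summed FPKM, mostly S100a8, was 317, 309.6 and 298 in CEBPb-A libraries, against 263, 263 and 214 in CEBPb libraries. Of these 3, S100a8 alone was separated between the groups, with a log2 difference of 0.35. Cxcr2 and Csf3r overlapped between the groups, with log2 differences of 0.036 and -0.076. The part of these cell types in the results was not tested. The library CEBPb-A 3 stood apart on the first principal component (44.3% of the variance), at 25.7 against -11.7 to -0.095 for the other 5. Tap1 and the class I, peptide, transcription and interferon lists are therefore also given without it. Genes named from those lists are not. Tnfaip3, the gene of the delivered enzyme, measured 7.94, 15.5 and 7.32 FPKM in CEBPb-A libraries, against 8.76, 17.7 and 19.2 FPKM in CEBPb libraries, and the groups overlapped, with a lower mean in CEBPb-A. This row therefore does not bear out the A20 label, and the groups are called by their labels throughout. Whether the row counts transcripts of the viral construct was not tested.

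Gm7030 (ENSMUSG00000092243.8, chr17:36109719-36129425, minus strand, GRCm38) measured 7.60, 5.31 and 5.45 FPKM in the CEBPb-A libraries, against 0.0733, 0.0656 and 0.136 FPKM in the CEBPb libraries. All 3 CEBPb-A libraries lay far above all 3 CEBPb libraries, with no overlap. The mean was 6.12 ± 1.28 FPKM in CEBPb-A and 0.0916 ± 0.0385 FPKM in CEBPb (SD, n = 3 each), a 66.8-fold ratio of means. With CEBPb values this low, the size of the ratio is uncertain. On the log2(FPKM + 1) scale, which understates changes of low genes, the difference was 2.69 (SE 0.13). Among the 9617 tested genes, ranked from the highest FPKM, Gm7030 stood at 4824, 5903 and 5634 in the CEBPb-A libraries and at 9611, 9611 and 9612 in the CEBPb libraries. It was thus of middle level among the tested genes in CEBPb-A. Its place near the bottom in CEBPb follows largely from the filter, which left out genes low in both groups. Its rank among all 10539 genes is not given. Of all tested genes, 5 had a mean at least 10 times higher in CEBPb-A and 0 had one at least 10 times lower, and in 1 of those 5, Gm7030 itself, the groups did not overlap. Gm7030 was chosen for this difference, so its place in that count is a description.

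The annotation used for positions, GENCODE M21 on GRCm38, gives Gm7030 3 transcripts with 2 distinct sequences. Exons 1 to 4 lie together, at chr17:36129340-36129425, chr17:36128895-36129164, chr17:36128474-36128740 and chr17:36127609-36127884. They hold 86, 270, 267 and 276 bases, as in class I genes whose exons 2 and 3 encode the peptide groove and exon 4 the membrane-proximal α3 domain. The annotated coding sequence ends inside exon 4, of which 242 bases are coding, and no later exon is coding. The long extent of the listed locus rests on an exon 5 of 14 bases at chr17:36109719-36109732, which lies inside an exon of the pseudogene H2-T-ps on the same strand. Another transcript places a 14-base exon 5 at chr17:36127479-36127492. H2-T10 lies in the intron before the distant exon. Exons 1 to 3 are overlapped on the opposite strand by exons of Gm19684, which was not analysed here. The library kit keeps strand, but whether the authors' counting used it is not given, so reads of Gm7030 and of Gm19684 cannot be told apart with certainty.

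Gm7030 shares long runs of sequence with other class I genes, so how the authors assigned reads that match several genes bears on its FPKM, and that rule is not given. Of the 864 possible 50-base windows of its 913-base transcript, 525 (60.8%) occur without a mismatch in a transcript of another gene. The neighbour Gm11127 holds 495 of them, H2-T23 holds 111 and H2-D1 holds 100. With 100-base windows 44.6% were shared, and with 150-base windows 27.4%. By exon, 0 of 37 windows in exon 1 were shared, 145 of 221 (65.6%) in exon 2, 207 of 218 (95.0%) in exon 3 and 127 of 227 (55.9%) in exon 4. In exons 2 and 3 all the shared windows were shared with Gm11127, whereas in exon 4 H2-T23, H2-D1, H2-Q1 and H2-T22 held them as well.

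**Figure D1:**
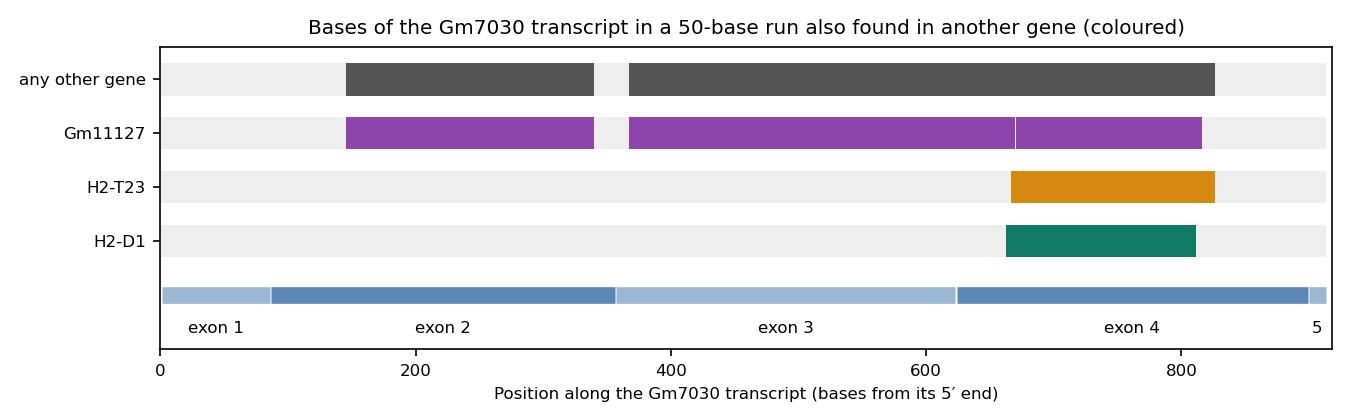
Position along the 913-base Gm7030 transcript (x axis, bases from its 5′ end) with coloured bars where a base lies in a 50-base run also found in another gene, for any gene and for 3 genes by name, and the exons below. Shared bases (653 of 913, 71.5%) fill most of exons 2 to 4, mainly through Gm11127, while H2-T23 and H2-D1 share bases of exon 4 alone.

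The longest coding run within an exon that Gm7030 holds in common with both H2-T23 and H2-D1 is shown because a read inside it cannot be assigned to one of the 3 genes by its sequence. It spans 145 bases of exon 4 at chr17:36127697-36127841 (minus strand, GRCm38), printed 5′ to 3′ with the closest stretch of 4 class I genes. Capitals mark bases unlike Gm7030.
Gm7030: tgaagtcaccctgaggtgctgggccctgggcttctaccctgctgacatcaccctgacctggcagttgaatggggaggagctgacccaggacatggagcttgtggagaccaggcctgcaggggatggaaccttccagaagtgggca
Gm11127: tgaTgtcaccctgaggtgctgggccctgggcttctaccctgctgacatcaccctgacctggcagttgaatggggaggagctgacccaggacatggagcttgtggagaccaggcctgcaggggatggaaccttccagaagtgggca
H2-T23: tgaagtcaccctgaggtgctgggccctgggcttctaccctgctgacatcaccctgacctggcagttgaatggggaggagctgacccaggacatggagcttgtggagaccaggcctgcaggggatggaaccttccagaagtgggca
H2-D1: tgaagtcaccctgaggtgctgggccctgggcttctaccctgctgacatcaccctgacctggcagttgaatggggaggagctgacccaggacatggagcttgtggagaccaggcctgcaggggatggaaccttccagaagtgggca
H2-K1: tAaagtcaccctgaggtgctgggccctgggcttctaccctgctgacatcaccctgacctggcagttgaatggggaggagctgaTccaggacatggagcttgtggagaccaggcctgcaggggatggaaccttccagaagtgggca
H2-T23 and H2-D1 differed from Gm7030 at 0 of these 145 bases, Gm11127 at 1 and H2-K1 at 2. Within a single exon, the longest identical coding run was 256 bases with Gm11127 (in exon 3, where it goes on into exon 4 along the transcript), 160 with H2-T23, 149 with H2-D1 and 81 with H2-K1.

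A second stretch is shown because, of all 60-base coding stretches within an exon and outside the first one, it is the one farthest from its nearest match in these 4 genes. It begins exon 2 at chr17:36129105-36129164 (minus strand), with capitals again at bases unlike Gm7030.
Gm7030: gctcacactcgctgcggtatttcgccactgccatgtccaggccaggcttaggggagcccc
Gm11127: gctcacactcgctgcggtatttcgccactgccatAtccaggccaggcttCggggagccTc
H2-T23: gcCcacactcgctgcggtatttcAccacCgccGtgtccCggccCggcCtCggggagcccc
H2-D1: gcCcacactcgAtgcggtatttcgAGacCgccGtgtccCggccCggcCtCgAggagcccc
H2-K1: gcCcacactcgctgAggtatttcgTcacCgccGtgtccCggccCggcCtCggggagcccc
Gm11127 differed at 3 of the 60 bases, H2-T23 at 8, H2-K1 at 9 and H2-D1 at 11. Even in the most distinctive of the coding stretches searched, the nearest of these 4 copies was thus within 3 bases of Gm7030. Non-coding bases and exon junctions were not searched in this way.

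The gene that shares most with Gm7030 overlapped between the groups. Gm11127, a class I gene (chr17:36055816-36058371, minus strand), measured 2.74, 2.02 and 3.18 FPKM in CEBPb-A libraries, against 2.25, 1.58 and 3.70 FPKM in CEBPb libraries. The difference of 0.087 (SE 0.22) on the log2 scale had an adjusted p of 0.897 by limma with Benjamini-Hochberg adjustment over all tested genes. Added together, Gm7030 and Gm11127 came to 10.33, 7.33 and 8.63 FPKM in CEBPb-A libraries, against 2.32, 1.64 and 3.84 FPKM in CEBPb libraries. The sum holds the Gm7030 values for which the gene was chosen, so its separation is a description, and an exchange of reads between the pair was not tested. Relative to H2-T23, Gm7030 stood at 46.9%, 37.4% and 38.4% in CEBPb-A libraries and at 0.484%, 0.441% and 0.915% in CEBPb libraries. Relative to H2-D1 it stood at 0.843%, 0.567% and 0.486% in CEBPb-A libraries and at 0.0077%, 0.00699% and 0.0122% in CEBPb libraries. H2-D1 itself averaged 986 ± 118 FPKM in CEBPb-A and 1002 ± 98.6 FPKM in CEBPb (SD, n = 3 each). Whether reads of H2-T23 or H2-D1 entered the Gm7030 values was not tested.

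H2-D1 (ENSMUSG00000073411.11, chr17:35262730-35267499, plus strand), a classical heavy chain, measured 901, 936 and 1120.1 FPKM in CEBPb-A libraries, against 952, 939 and 1116 FPKM in CEBPb libraries. The groups overlapped fully, with the third library of each group the highest. The means were 986 ± 118 FPKM in CEBPb-A and 1002 ± 98.6 FPKM in CEBPb (SD, n = 3 each), a log2 difference of -0.026 (SE 0.12, adjusted p = 0.945, limma). H2-D1 alone made up 77.3% to 79.9% of the FPKM of 13 class I heavy chain rows on chromosome 17 in CEBPb-A libraries and 76.5% to 78.3% in CEBPb libraries. It was the dominant heavy chain transcript of these macrophages in every library.

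H2-K1 (ENSMUSG00000061232.15, chr17:33996017-34000333, minus strand), the other classical heavy chain of this haplotype, measured 126, 141 and 157 FPKM in CEBPb-A libraries, against 137, 151 and 157 FPKM in CEBPb libraries. The ranges overlapped, and the log2 difference was -0.074 (SE 0.099, adjusted p = 0.791, limma). It was far below H2-D1 in all 6 libraries.

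H2-T23 (ENSMUSG00000067212.8, chr17:36029773-36032855, minus strand), the class Ib gene of Qa-1, measured 16.2, 14.2 and 14.2 FPKM in CEBPb-A libraries, against 15.2, 14.9 and 14.8 FPKM in CEBPb libraries. One CEBPb-A library lay above all CEBPb libraries and the others below them, for a log2 difference of -0.013 (SE 0.081, adjusted p = 0.961, limma). Of the transcript windows of 50 bases, 28.8% in H2-T23, 14.3% in H2-D1 and 8.79% in H2-K1 occur in another gene, smaller shares than the 60.8% of Gm7030. How far shared reads enter their values was not tested.

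B2m (ENSMUSG00000060802.8, chr2:122147686-122153083, plus strand), the light chain of all these molecules, measured 1603, 1509 and 1658 FPKM in CEBPb-A libraries, against 1545, 1603 and 1548 FPKM in CEBPb libraries. It was the highest member, its groups overlapped, and the log2 difference was 0.022 (SE 0.086, adjusted p = 0.936, limma). The FPKM of the 13 heavy chain rows summed to 1162, 1211 and 1402 in CEBPb-A libraries, against 1225, 1228 and 1426 in CEBPb libraries. B2m stood at 1.38, 1.25 and 1.18 times that sum in CEBPb-A libraries and at 1.26, 1.31 and 1.09 times in CEBPb libraries, so the balance of light to heavy chain transcripts overlapped between the groups as well. Gm7030 made up 0.654%, 0.439% and 0.389% of the sum in CEBPb-A libraries and 0.00599%, 0.00535% and 0.00953% in CEBPb libraries, a minor share in either group.

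**Figure D2:**
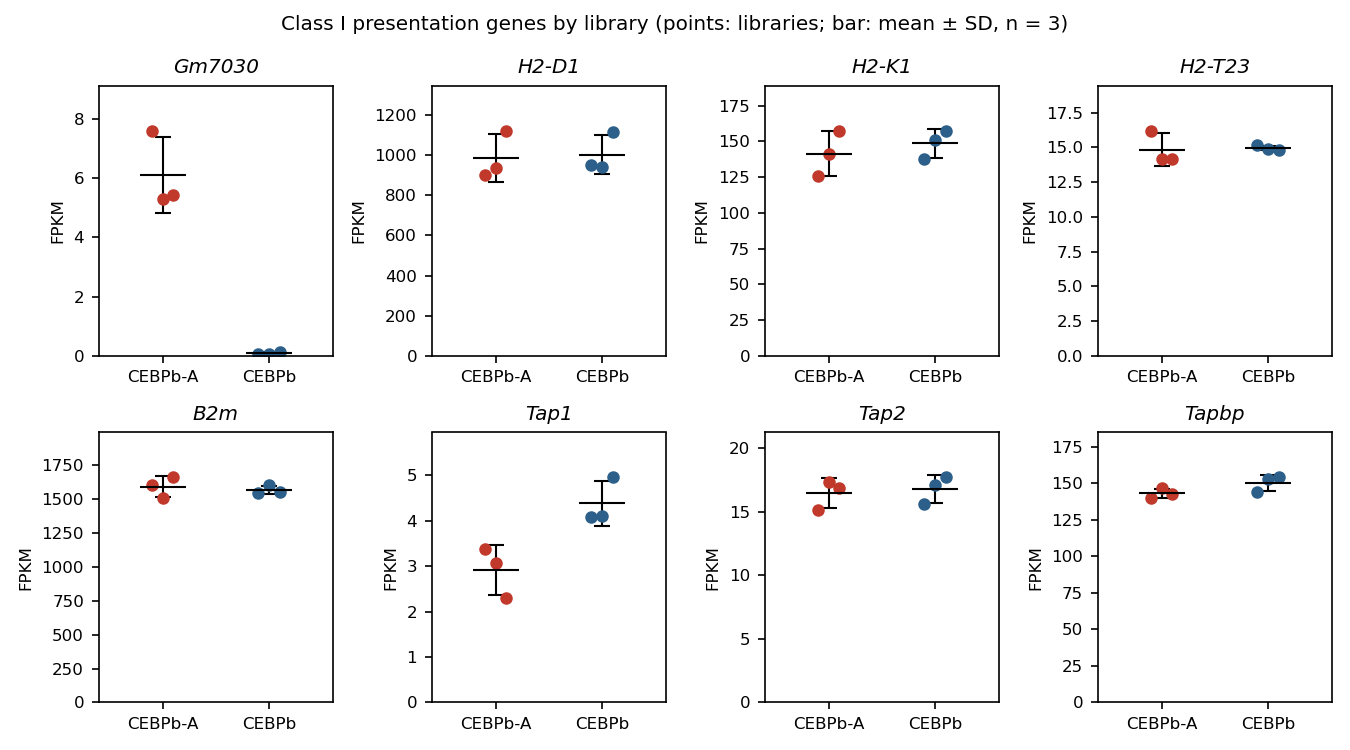
FPKM of the 8 members in each library (points), with the mean and SD of each group of 3 (bars); the y axis of each panel starts at 0 and has its own scale. Gm7030 sits between 5.31 and 7.60 FPKM in CEBPb-A and at or below 0.136 FPKM in CEBPb, Tap1 is lower in every CEBPb-A library, and the other 6 overlap.

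Tap1 (ENSMUSG00000037321.17, chr17:34187553-34197225, plus strand), one chain of the peptide transporter, measured 3.38, 3.07 and 2.31 FPKM in CEBPb-A libraries, against 4.08, 4.10 and 4.95 FPKM in CEBPb libraries. Every CEBPb-A library lay below every CEBPb library. The means were 2.92 ± 0.552 FPKM in CEBPb-A and 4.38 ± 0.494 FPKM in CEBPb (SD, n = 3 each), so the CEBPb mean was 1.5-fold the CEBPb-A mean. The log2 difference of -0.46 (SE 0.13) did not pass over all tested genes (adjusted p = 0.588, limma). It was -0.35 without CEBPb-A 3, the library that stood apart and had the lowest Tap1 value, with an adjusted p of 0.854. Over the alternatives run, the adjusted p of Tap1 ranged between 0.372 and 0.855.

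Tap2 (ENSMUSG00000024339.12, chr17:34203527-34216321, plus strand), the other chain of the transporter, measured 15.1, 17.4 and 16.9 FPKM in CEBPb-A libraries, against 15.6, 17.1 and 17.7 FPKM in CEBPb libraries. Its groups overlapped, with a log2 difference of -0.028 (SE 0.087, adjusted p = 0.917, limma). The chains of one dimer thus differed in level, Tap1 being the lower in all 6 libraries, and Tap1 alone was separated between the groups. Whether the difference of Tap1 differs from that of Tap2 was not tested.

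Tapbp (ENSMUSG00000024308.14, chr17:33915899-33929288, plus strand), tapasin, measured 140.1, 147 and 142 FPKM in CEBPb-A libraries, against 144, 153 and 154 FPKM in CEBPb libraries. The ranges overlapped, and the log2 difference was -0.072 (SE 0.067, adjusted p = 0.698, limma). At 0 to 2.0% shared 50-base windows, B2m, Tap1, Tap2 and Tapbp hold little sequence in common with other genes.

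Counted together, 0 of the 7 members other than Gm7030 passed limma's adjusted p of 0.05, where 0.052% of all tested genes did (0.0208% higher and 0.0312% lower). At an unadjusted p under 0.05, which 8.18% of all tested genes reached, 1 of 7 was lower in CEBPb-A (Tap1) and 0 were higher, with 4.42% lower and 3.76% higher among all tested genes. The groups did not overlap for 1 of 7, lower in CEBPb-A, against 16.8% of all tested genes, 8.86% lower and 7.89% higher. The median log2 difference was -0.028 over the 7 and -0.013 over all tested genes. In bulk RNA, fewer cells of a type and less RNA per cell cannot be told apart, and no value here speaks to protein or to surface display.

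The other class I heavy chains and class I-like genes were taken from a list of 40 names, of which 17 had a row, all tested. None of the 17 passed (0 by limma's adjusted p, smallest 0.588), and 0 were higher and 3 lower in CEBPb-A at an unadjusted p under 0.05, where 3.76% of all tested genes were higher and 4.42% lower. The groups did not overlap for 5, all lower in CEBPb-A, where 8.86% of all tested genes were. With each library left out in turn, between 2 and 4 were lower at an unadjusted p under 0.05. Of all tested genes, between 2.52% and 7.26% were lower in those fits. The list's median log2 difference was -0.075, -0.025 without CEBPb-A 3 and -0.18 when a mean of 5 FPKM or more was required. The 3 with an unadjusted p under 0.05 were the class Ib Q region genes H2-Q7, H2-Q6 and H2-Q4. H2-Q7 measured 4.66, 5.05 and 4.76 FPKM in CEBPb-A libraries, against 6.00, 6.45 and 6.37 FPKM in CEBPb libraries, with a log2 difference of -0.32 (SE 0.082). H2-Q6 measured 13.4, 11.8 and 10.9 FPKM in CEBPb-A libraries, against 13.8, 17.7 and 17.6 FPKM in CEBPb libraries. H2-Q4 measured 26.0, 28.8 and 24.8 FPKM in CEBPb-A libraries, against 29.8, 30.2 and 32.3 FPKM in CEBPb libraries. For these 3 relatives every CEBPb-A library lay below every CEBPb library, the opposite side from Gm7030. H2-Q7, H2-Q6 and H2-Q4 also share 34.9%, 31.97% and 24.3% of their 50-base windows with other genes, so their separate values are uncertain too.

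**Figure D3:**
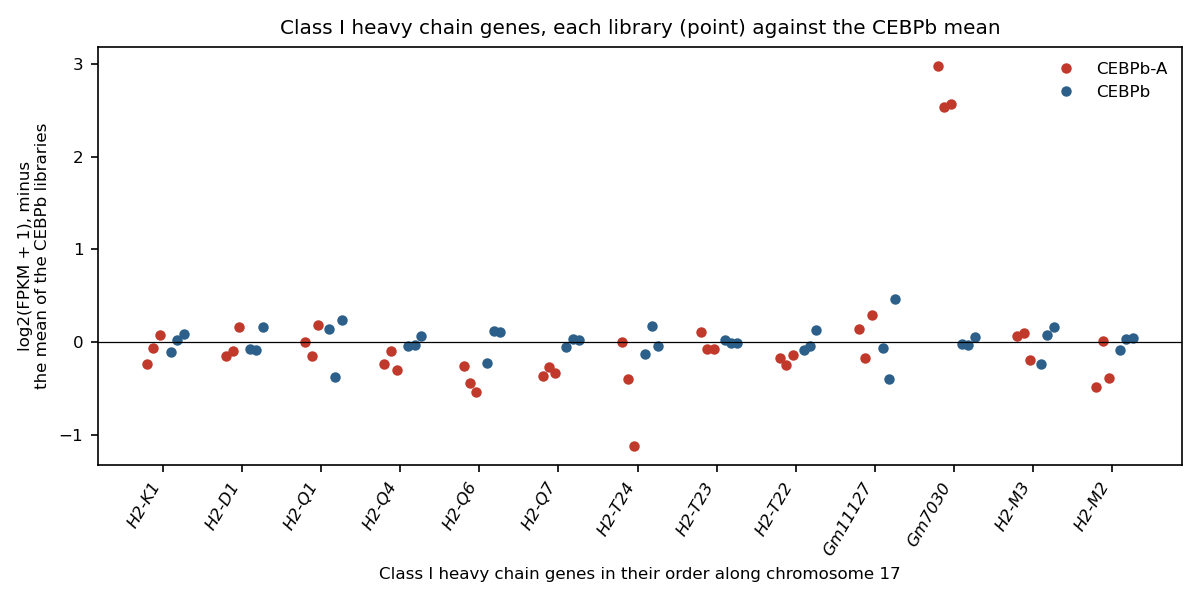
Difference of each library (points) from the CEBPb mean on the log2(FPKM + 1) scale (y axis) for 13 class I heavy chain genes in their order along chromosome 17 (x axis). Gm7030 alone lies above 2 in the CEBPb-A libraries. For H2-Q4, H2-Q6, H2-Q7 and H2-T22 every CEBPb-A library lies below every CEBPb library.

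Among the genes with rows near Gm7030, none showed a difference of the size seen at Gm7030. The closest of them, Gm6034 and Gm11127, lie 51074 and 51348 bases away. H2-T-ps, H2-T10, BC023719, Gm19684, Gm10499 and Gm8909 overlap the locus or lie nearer. They had no row among the genes analysed here, so nothing is known of their levels. Within 500000 bases of its locus, 23 other genes had rows and 22 were tested. The class I genes there were H2-T24, H2-T23, H2-T22 and Gm11127, and the others were Vars2, Gtf2h4, Ier3, Flot1, Tubb5, Mdc1, Nrm, Ppp1r18, Dhx16, 2310061I04Rik, Atat1, Mrps18b, Ppp1r10, Abcf1, Prr3, Gnl1, Gm6034, Rpp21 and Trim39. By limma, 0 of the 22 passed, 2 were higher and 0 lower at an unadjusted p under 0.05, beside 3.76% and 4.42% of all tested genes. The groups did not overlap for 3 higher and 2 lower, beside 7.89% and 8.86%. Their log2 differences ran between -0.51 and 0.27 with a median of -0.014. H2-T22, a class Ib gene known as a ligand of some γδ T cells, measured 4.81, 4.54 and 4.97 FPKM in CEBPb-A libraries, against 5.18, 5.35 and 6.19 FPKM in CEBPb libraries. H2-T24, the lowest of these differences, measured 7.87, 5.73 and 3.09 FPKM in CEBPb-A libraries, against 7.11, 9.05 and 7.61 FPKM in CEBPb libraries. Rpp21, a ribonuclease P subunit and the nearest tested gene on the other side, measured 11.7, 11.6 and 11.7 FPKM in CEBPb-A libraries, against 9.35, 9.64 and 10.59 FPKM in CEBPb libraries.

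The genes most like Gm7030 over the 6 libraries, by Pearson's r on the log2(FPKM + 1) scale, were Bpgm (0.997), Syce2 (0.990), Zbtb8a (0.985), Tars2 (0.984) and Sap25 (0.983). The most opposite were Fstl1 (-0.991), Esf1 (-0.979), Tbl1xr1 (-0.979), Nif3l1 (-0.978) and H2-Q7 (-0.978). The 6 points form 2 groups set by the label, so these values describe genes whose groups were far apart relative to their spread, and they are given with no p. Bpgm, the first, measured 3.18, 3.02 and 3.06 FPKM in CEBPb-A libraries, against 2.56, 2.54 and 2.53 FPKM in CEBPb libraries, a far smaller difference than that of Gm7030.

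The upstream sequences of 3 members are shown because classical class I promoters carry a shared set of elements and the members differ in which of these letters they hold. RefSeq promoter entries (GRCm38.p6) matched 7 of the 8 members, Tap2 being the exception. The 250 bases before each start were searched on both strands for CCAAT (bound by NF-Y), TGACG (the core of the CREB/ATF site), GGGNNNNNCC (an NF-κB form) and AANNGAAA (part of an interferon-stimulated response element). Capitals mark matches on either strand (ATTGG is CCAAT read on the other strand), and overlapping matches run together. The windows are chr17:36129426-36129675 (minus strand) for Gm7030, chr17:35262844-35263093 (plus strand) for H2-D1 and chr2:122147437-122147686 (plus strand) for B2m.
Gm7030: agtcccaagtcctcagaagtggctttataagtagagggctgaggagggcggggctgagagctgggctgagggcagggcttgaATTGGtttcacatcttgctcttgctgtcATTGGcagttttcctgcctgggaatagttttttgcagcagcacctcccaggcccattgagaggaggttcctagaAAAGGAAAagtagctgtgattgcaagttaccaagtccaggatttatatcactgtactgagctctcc
H2-D1: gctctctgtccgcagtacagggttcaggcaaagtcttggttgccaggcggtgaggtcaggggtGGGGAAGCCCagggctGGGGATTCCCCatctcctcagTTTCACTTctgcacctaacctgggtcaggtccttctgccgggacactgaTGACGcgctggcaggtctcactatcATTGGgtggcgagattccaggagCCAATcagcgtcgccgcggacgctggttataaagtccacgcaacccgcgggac
B2m: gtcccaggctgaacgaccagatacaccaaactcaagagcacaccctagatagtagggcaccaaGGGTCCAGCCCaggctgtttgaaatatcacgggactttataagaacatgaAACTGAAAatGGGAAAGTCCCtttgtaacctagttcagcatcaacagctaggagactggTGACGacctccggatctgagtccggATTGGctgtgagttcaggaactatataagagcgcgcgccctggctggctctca
CCAAT was found in 7 of the 7 members, TGACG in 4, GGGNNNNNCC in 4 and AANNGAAA in 5, against 33.8%, 17.8%, 45.8% and 21.3% of 32851 promoters of the same length. Gm7030 held 2 matches to CCAAT, 1 to AANNGAAA and 0 to TGACG and to GGGNNNNNCC, and H2-D1 held 2, 1, 1 and 3 in that order of motifs. B2m held 1, 1, 1 and 4. These are matches of letters in a window and not shown to be sites in these cells.

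Genes that supply and load peptides were taken from a list of 20 names, all tested. None passed (0 by limma, smallest adjusted p 0.588), and 0 were higher and 1 lower in CEBPb-A at an unadjusted p under 0.05, beside 3.76% and 4.42% of all tested genes. The groups did not overlap for 4, all lower in CEBPb-A, beside 8.86% of all tested genes. The count of 1 became 3 without CEBPb-A 1 (7.26% of all tested genes lower) and 2 without CEBPb 2 (2.96%). It became 0 without CEBPb-A 3 or CEBPb 3 (2.96% and 3.77%). The list's median log2 difference was -0.077, and -0.010 without CEBPb-A 3. The one was Tapbpl (TAPBPR, a tapasin-like peptide editor), at 12.8, 14.3 and 12.9 FPKM in CEBPb-A libraries, against 15.2, 15.0 and 18.3 FPKM in CEBPb libraries. Its groups did not overlap, with a log2 difference of -0.26 (SE 0.098, adjusted p = 0.588, limma). Erap1, the endoplasmic reticulum aminopeptidase that trims class I peptides, measured 12.2, 11.4 and 8.88 FPKM in CEBPb-A libraries, against 12.2, 13.6 and 12.4 FPKM in CEBPb libraries. Of the chaperones, Calr (calreticulin) stood at 338 ± 19.4 FPKM in CEBPb-A and 324 ± 23.3 FPKM in CEBPb, and Pdia3 (ERp57) at 166 ± 8.82 FPKM in CEBPb-A and 161 ± 4.45 FPKM in CEBPb (SD, n = 3 each), and both overlapped between the groups. Canx (calnexin), named after its values were seen, measured 115, 113 and 97.3 FPKM in CEBPb-A libraries, against 118, 123 and 120.4 FPKM in CEBPb libraries, with no overlap and an adjusted p of 0.591 by limma. Lnpep and Npepps, aminopeptidases that can trim peptides, overlapped between the groups and had log2 differences of -0.52 (SE 0.28) and -0.20 (SE 0.091).

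Of 25 genes that control class I transcription, all tested, 0 passed by limma (smallest adjusted p 0.588), and 1 was higher and 6 lower in CEBPb-A at an unadjusted p under 0.05, beside 3.76% and 4.42% of all tested genes. The groups did not overlap for 1 higher and 7 lower, beside 7.89% and 8.86% of all tested genes. The 6 lower became 7 without CEBPb-A 1, where 7.26% of all tested genes were lower. They became 2 without CEBPb-A 2 or CEBPb-A 3, beside 4.13% and 2.96%. Without CEBPb 1, 2 or 3 they became 1, beside 2.52%, 2.96% and 3.77%, so the count rests on the full set of libraries. The list's median log2 difference was -0.11 with all 6 libraries and -0.061 without CEBPb-A 3. Nlrc5, the class I coactivator, measured 2.88, 2.19 and 1.68 FPKM in CEBPb-A libraries, against 3.20, 3.26 and 3.14 FPKM in CEBPb libraries. All 3 CEBPb-A libraries lay below the CEBPb libraries, CEBPb-A 3 the lowest as for Tap1, with a log2 difference of -0.39 (SE 0.14, adjusted p = 0.588, limma). Ifnar1, a chain of the type I interferon receptor, measured 9.29, 9.22 and 7.31 FPKM in CEBPb-A libraries, against 10.8, 10.54 and 11.1 FPKM in CEBPb libraries. Stat2, which carries the type I interferon signal, measured 15.8, 12.1 and 8.27 FPKM in CEBPb-A libraries, against 16.4, 16.9 and 16.7 FPKM in CEBPb libraries. Irf8, a macrophage transcription factor, was the one on the higher side, at 34.9, 40.1 and 41.8 FPKM in CEBPb-A libraries, against 34.0, 32.9 and 33.2 FPKM in CEBPb libraries. Rela, the NF-κB subunit, overlapped, at 42.8 ± 4.06 FPKM in CEBPb-A and 44.1 ± 1.55 FPKM in CEBPb (SD, n = 3 each).

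Interferon response genes came from a list of 38 names, of which 33 had rows and 32 were tested. None passed (0 by limma, smallest adjusted p 0.588), while 0 were higher and 19 lower in CEBPb-A at an unadjusted p under 0.05, where 3.76% of all tested genes were higher and 4.42% lower. The groups did not overlap for 0 higher and 14 lower, beside 7.89% and 8.86% of all tested genes. The count of 19 became 12 of 33 without CEBPb-A 3, where 2.96% of all tested genes were lower. Over the removal of each library in turn it ran between 7 and 26. The lowest was without CEBPb 2, beside 2.96% of all tested genes, and the highest without CEBPb-A 1, beside 7.26%. The median log2 difference was -0.42, and -0.25 without CEBPb-A 3. Gbp7, an interferon-inducible GTPase, measured 3.63, 2.89 and 1.47 FPKM in CEBPb-A libraries, against 4.70, 5.94 and 5.31 FPKM in CEBPb libraries. Gbp2 measured 28.1, 26.2 and 19.9 FPKM in CEBPb-A libraries, against 32.7, 34.0 and 35.9 FPKM in CEBPb libraries. Both were lowest in CEBPb-A 3, as Tap1 and Nlrc5 were, and neither passed over all genes.

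**Figure D4:**
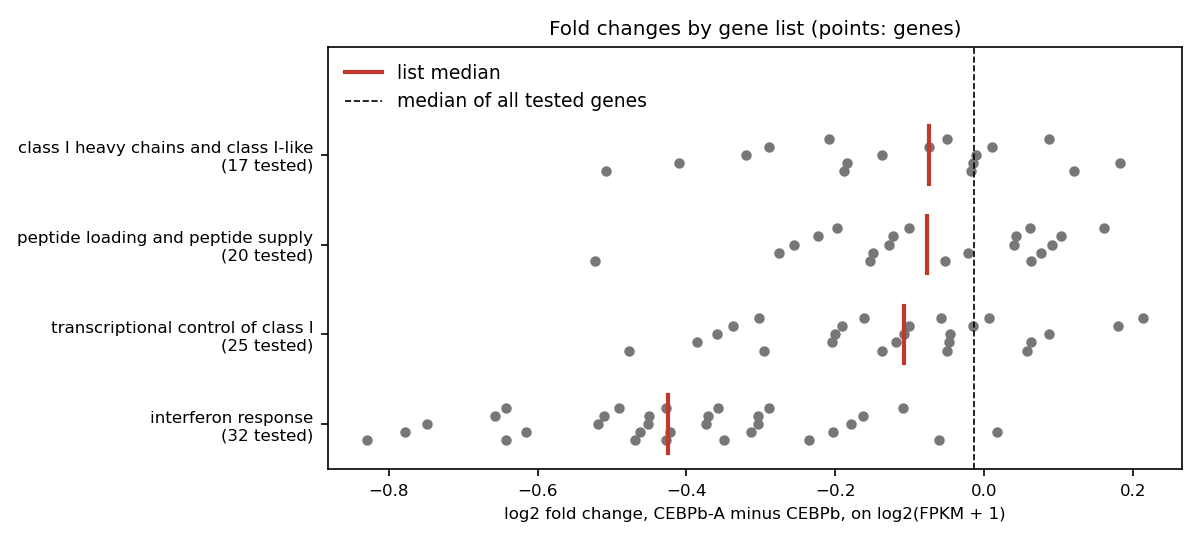
Log2 differences, CEBPb-A minus CEBPb (x axis, log2(FPKM + 1) scale), of the tested genes (points) of 4 lists, with each list's median (red bar) and the median of all tested genes (dashed line, -0.013). The list medians lie at -0.075, -0.077, -0.11 and -0.42, with the interferon response list lowest; no gene shown passed the adjusted threshold.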

How the data were processed

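Stranded RNA-seq was made from 6 libraries, per the labels' protocols. The authors deposited FPKM values per gene, per the file headers, computed on the build GRCm38, per the submitters' processing notes. Neither the aligner nor the counting program, nor its rule for reads matching several genes, is stated. Low FPKM values showed no clear whole-read steps (highest periodicity 0.244 to 0.310 on a scale of 0 to 1), so depth is unknown, no counting interval is given, and precision was judged from the spread of 3 libraries a group. Library sums of FPKM ran between 278907 and 313215.

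Genes with a mean of at least 1 FPKM (9617) were tested on log2(FPKM + 1) with limma 3.58.1 (R 4.3.3) and an intensity trend, as CEBPb-A minus CEBPb, two-sided, Benjamini-Hochberg adjusted over all tested genes, threshold 0.05, no covariate. The fit was tested on simulated data. Members and lists were chosen with earlier results of these data known. By rule, the text names the 8 members, up to 4 genes a list by smallest p plus 2 by highest FPKM, genes within 500000 bases of Gm7030, and the 5 most like and most opposite genes. Where a list's genes are counted, only some of those are given values. Sequence sharing was counted as exact windows over GENCODE M21 transcripts, which held 10530 of the 10539 identifiers. The locus was the same for 9617 of the listed genes and for 6 of the 8 members. Alternatives were pseudocounts, filters, scalings, variance priors, a replicate block and each library left out.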

Additional observations from a re-analysis of the deposited data

How the results depend on the processing

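Across 16 alternatives, 0 genes of the class I, peptide loading, transcriptional control and interferon lists passed the threshold, as did 0 of the 7 members other than Gm7030. Genes past the threshold numbered 5 over the whole table, 0 with a mean FPKM of at least 5 (which leaves out Gm7030 and Tap1), 2 with quantile normalization and between 1 and 9 with a library left out: 1 without CEBPb-A 1, 3 without CEBPb-A 2, 9 without CEBPb-A 3, 3 without CEBPb 1, 4 without CEBPb 2 and 2 without CEBPb 3. Equal replicate numbers were not taken as pairs, since the labels do not say that they pair libraries. Same-numbered libraries had deviations correlated at 0.0993, 0.247 and 0.259, against -0.245 to 0.0869 for other numbers. Each library correlated best with its own number, so a pairing may exist that the p-values without a block leave out. With a replicate block 1 gene passed. The log2 difference of Gm7030 was 5.02 with a pseudocount of 0.1 and 3.47 with 0.5, and between 2.55 and 2.77 under the other 13. Differences near 0 changed sign. With a library left out they ran between -0.12 and 0.054 for H2-D1, -0.15 and 0.0064 for H2-K1, -0.073 and 0.017 for H2-T23, -0.0091 and 0.059 for B2m, and -0.078 and 0.029 for Tap2. H2-D1 was 0.036 without CEBPb-A 1, 0.0080 without CEBPb-A 2 and 0.054 without CEBPb 3. H2-K1 was 0.0064 without CEBPb-A 1. H2-T23 was 0.0032 with median-of-ratios scaling, 0.0018 with quantile normalization and 0.017 without CEBPb-A 2 or CEBPb-A 3. B2m was -0.13 with quantile normalization and -0.0091 without CEBPb-A 3. Tap2 was 0.029 without CEBPb-A 1 and 0.0085 without CEBPb 3. The cause was not tested. Tap1 and Tapbp kept their direction in every alternative that tested them.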

Other observations

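Class I-like genes that present no peptides to CD8+ T cells were measured as well, and those named here did not pass the threshold. Fcgrt, the heavy chain of the neonatal Fc receptor, which pairs with β2-microglobulin, measured 49.9, 47.6 and 55.4 FPKM in CEBPb-A libraries, against 44.8, 40.9 and 48.7 FPKM in CEBPb libraries. Cd1d1, which presents lipids to NKT cells, measured 94.9, 106 and 97.8 FPKM in CEBPb-A libraries, against 108, 112 and 108 FPKM in CEBPb libraries. The groups did not overlap for Cd1d1 and overlapped for Fcgrt, and neither passed (adjusted p = 0.589 for each, limma). H2-M2 measured 14.8, 21.1 and 15.8 FPKM in CEBPb-A libraries, against 19.8, 21.5 and 21.8 FPKM in CEBPb libraries, an overlap in the second CEBPb-A library.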
